A study of Homo sapiens with 15 samples.

Results

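Matriptase, its inhibitors and kallikreins are described here as 10 genes chosen by symbol: the membrane proteases ST14 and TMPRSS4, the membrane-anchored protease PRSS8, the inhibitors SPINT1 and SPINT2, and the kallikreins KLK5, KLK6, KLK7, KLK8 and KLK10. All 10 were found among the 33158 genes of the deposited expression table. The study sequenced mRNA of 3 established triple negative breast cancer cell lines, SUM149PT and SUM159PT (SUM149 and SUM159 in the labels) and HCC1937, to find transcripts that mark cancer stem cells (CSCs). CSCs were the CD44+/CD24-/low cells and non-CSCs the remaining cells, both isolated by flow sorting from untreated SUM149PT and HCC1937 cultures. SUM159PT was not sorted, and the study treated it as CSCs because most of its cells carry that surface phenotype. There were 3 libraries in each of the 5 groups, 15 in all, and nothing in the labels says that the libraries of a group came from separate cultures, so p-values measure the spread between these libraries, which may be technical.

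Matriptase, the product of ST14, is a type II transmembrane serine protease of epithelial cells that activates other proteases and growth factor precursors at the cell surface. It is held in check by the Kunitz-type inhibitors HAI-1 and HAI-2, encoded by SPINT1 and SPINT2, and it works in a cascade with prostasin, the GPI-anchored protease encoded by PRSS8. Kallikrein-related peptidases are secreted serine proteases encoded by a gene cluster on the long arm of chromosome 19. KLK5 and KLK7 are best known for cleaving desmosomal proteins during the shedding of skin cells, and several kallikreins activate one another.

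Expression was given as FPKM, a fragment count divided by the length of the transcript and by the number of mapped fragments of the library, so levels of different genes can be compared per length. Read counts were not given, so the absolute depth is unknown. Low values clustered at ratios that whole reads would give. Relative depth was read from the most common ratio among 1014 to 2275 genes under 0.15 FPKM in both libraries of a pair. It put the depth of the other 14 libraries at 0.856 to 1.09 times that of SUM149PT CSC replicate 1. Only ratios near equal depth were searched, so a much larger difference in depth could not have appeared. The summed FPKM was 634746 to 652082 in SUM159PT and 291276 to 366532 in the sorted libraries, so comparisons with SUM159PT depend more on scaling. The sort was visible in CD24, with a CSC minus non-CSC difference on the log2 scale of -4.15 in SUM149PT and -2.675 in HCC1937. The SUM149PT means of CD44 were 84.4 ± 2.08 FPKM for CSCs and 64.5 ± 2.86 FPKM for non-CSCs, and those of HCC1937 were 106.3 ± 6.33 and 97.8 ± 3.98 FPKM (SD, n = 3 each). These are bulk libraries, in which fewer cells of a type and less RNA per cell cannot be told apart.

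ST14 was listed in SUM149PT at 1.90, 2.00 and 2.09 FPKM in the CSC libraries and at 46.5, 43.7 and 42.7 FPKM in the non-CSC libraries. In HCC1937 its values were 8.31, 8.83 and 7.65 FPKM in CSCs and 54.4, 53.9 and 49.4 FPKM in non-CSCs. SUM159PT had 0.0433, 0.0337 and 0.0115 FPKM. The libraries of each group lay apart from those of every other group, and the order of the means was HCC1937 non-CSC, SUM149PT non-CSC, HCC1937 CSC, SUM149PT CSC and SUM159PT. The ratio of the means, non-CSC to CSC, was 22.2 in SUM149PT and 6.37 in HCC1937. With limma on log2(FPKM + 0.1), a scale that understates changes of genes with low FPKM, the SUM149PT change of ST14 was -4.40 (standard error 0.0653, adjusted p = 1.40e-06) and the HCC1937 change was -2.66 (standard error 0.0844, adjusted p = 0.000128).

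SPINT1, the gene of HAI-1, was among the more abundant transcripts of non-CSCs. Its values in SUM149PT were 14.96, 12.9 and 13.1 FPKM in CSCs and 309, 312 and 298 FPKM in non-CSCs. Those in HCC1937 were 30.5, 29.9 and 30.55 FPKM in CSCs and 140.2, 141 and 126.5 FPKM in non-CSCs. SUM159PT had 0.334, 0.376 and 0.412 FPKM. No library of one group overlapped with another group, and SUM149PT non-CSCs, not HCC1937 non-CSCs, were highest. The log2 fold change was -4.48 in SUM149PT (standard error 0.0759, adjusted p = 1.49e-06) and -2.16 in HCC1937 (standard error 0.0720, adjusted p = 0.000128).

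SPINT2, the gene of HAI-2, was listed in SUM149PT at 11.9, 13.4 and 13.4 FPKM in CSCs and at 265, 253 and 264 FPKM in non-CSCs. HCC1937 CSCs had 213, 189 and 177 FPKM and HCC1937 non-CSCs 422, 413 and 369 FPKM. SUM159PT had 1.71, 1.99 and 1.36 FPKM, the highest level of the 10 genes in that line. The CSC and non-CSC libraries did not overlap in either line, but the ratio of the means was 20.2 in SUM149PT and 2.08 in HCC1937. The log2 fold change was -4.33 in SUM149PT (standard error 0.0697, adjusted p = 1.49e-06) and -1.06 in HCC1937 (standard error 0.1004, adjusted p = 0.00130). The value in HCC1937 was close to the fold change limit of 1 that a call required and missed it at -0.93 with rescaling to a common sum, at -0.96 with quantile normalization and at -0.9986 without HCC1937 CSC replicate 3. In HCC1937 CSCs SPINT2 still lay above 98.7% of the 16373 genes whose mean reached 0.1 FPKM.

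PRSS8, the gene of prostasin, was listed in SUM149PT at 4.60, 4.22 and 4.27 FPKM in CSCs and at 87.1, 90.4 and 83.0 FPKM in non-CSCs. In HCC1937 it was listed at 9.84, 12.4 and 10.6 FPKM in CSCs and at 75.1, 74.7 and 65.2 FPKM in non-CSCs. SUM159PT had 0.0201, 0.1065 and 0.0859 FPKM. The groups did not overlap, and the log2 fold change was -4.28 in SUM149PT (standard error 0.0650, adjusted p = 1.40e-06) and -2.70 in HCC1937 (standard error 0.114, adjusted p = 0.000148).

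TMPRSS4, a type II transmembrane serine protease like matriptase, was the least abundant of the 5 genes outside the kallikreins. Its non-CSC libraries had 1.30, 1.37 and 1.10 FPKM in SUM149PT and 2.48, 1.905 and 2.01 FPKM in HCC1937. Its CSC libraries had 0.05495, 0.0685 and 0.0648 FPKM in SUM149PT and 0.119, 0.207 and 0.269 FPKM in HCC1937, and it was listed at 0 in all 3 SUM159PT libraries. CSC and non-CSC libraries did not overlap in either line. The log2 fold change was -3.06 in SUM149PT (standard error 0.0925, adjusted p = 3.82e-06) and -2.93 in HCC1937 (standard error 0.216, adjusted p = 0.0006095). Because the CSC values lay near the pseudocount of 0.1, the SUM149PT value ran from -4.12 to -1.09 and the HCC1937 value from -3.43 to -1.38 over the alternative settings.

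**Figure D1:**
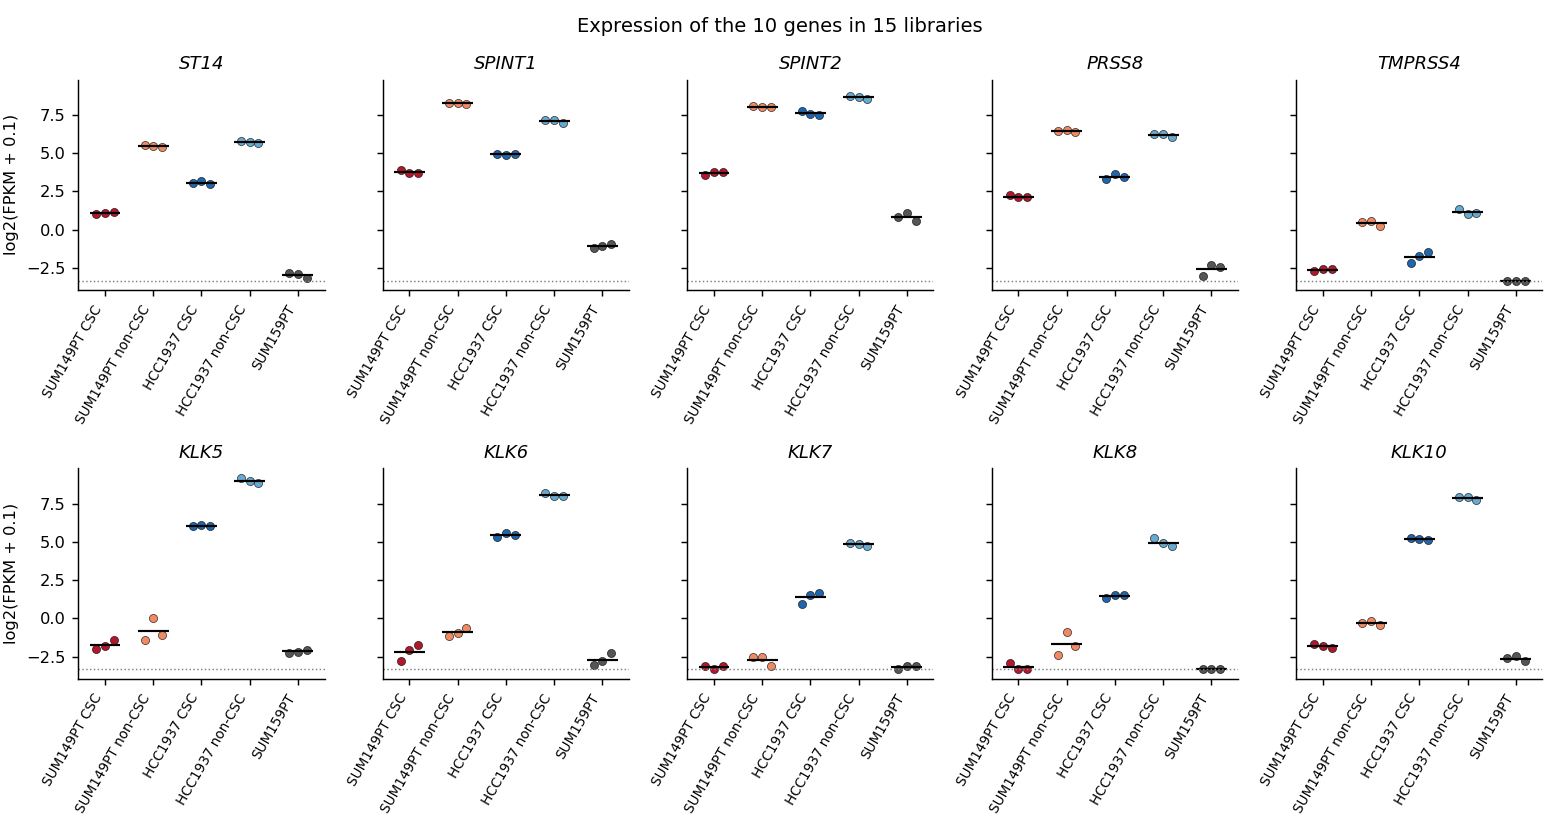
Expression of the 10 genes as log2(FPKM + 0.1) in the 15 libraries (points, 3 per group), with the group mean on this scale as a bar and the value of a gene listed at 0 as a dotted line. For the 5 genes in the upper row the non-CSC libraries lie above the CSC libraries of both lines and SUM159PT lies lowest, while the 5 kallikreins in the lower row are high in HCC1937 and under 1 FPKM in every other library.

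The kallikreins had another pattern across the lines. KLK5, which encodes a trypsin-like protease, was listed in HCC1937 at 64.8, 67.8 and 64.5 FPKM in CSCs and at 575, 494 and 460.2 FPKM in non-CSCs. In SUM149PT the values were 0.145, 0.187 and 0.270 FPKM in CSCs and 0.279, 0.923 and 0.376 FPKM in non-CSCs, and SUM159PT had 0.112, 0.120 and 0.143 FPKM. HCC1937 non-CSCs were far above every other group, and within SUM149PT the lowest non-CSC library was only just above the highest CSC library. The log2 fold change was -2.95 in HCC1937 (standard error 0.0999, adjusted p = 0.000128). In SUM149PT it was -0.94 (standard error 0.396, adjusted p = 0.0739) and did not pass. Without SUM149PT non-CSC replicate 1 the SUM149PT value was -1.24 with an adjusted p of 0.0383, in a range of adjusted p from 0.00948 to 0.457 over the alternatives. Leaving out single libraries gave values from -1.24 to -0.52.

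KLK6 and KLK10 had the next highest levels of the kallikreins in HCC1937. KLK6 was listed there at 39.1, 47.65 and 43.8 FPKM in CSCs and at 296, 255 and 254 FPKM in non-CSCs. KLK10 was listed at 37.3, 36.7 and 34.6 FPKM in CSCs and at 240.7, 242 and 212 FPKM in non-CSCs. Neither gene had overlapping fractions in HCC1937, and the log2 fold changes were -2.62 for KLK6 (standard error 0.108, adjusted p = 0.000147) and -2.67 for KLK10 (standard error 0.0823, adjusted p = 0.000128). The SUM149PT libraries ran from 0.0423 to 0.538 FPKM for KLK6 and from 0.166 to 0.799 FPKM for KLK10, with each non-CSC library above each CSC library. Both were lower in SUM149PT CSCs as well, by a log2 fold change of -1.30 for KLK6 (adjusted p = 0.00827) and -1.51 for KLK10 (adjusted p = 4.55e-05). The KLK6 call was lost with quantile normalization (adjusted p = 0.0778, in a range from 0.000520 to 0.0778 over the alternatives), and its log2 fold change was -0.35 with a pseudocount of 1 and -0.998 without SUM149PT CSC replicate 1. The KLK10 call was lost on the fold change, at -0.54 with a pseudocount of 1 and -0.92 with quantile normalization.

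KLK7, which encodes a chymotrypsin-like protease, and KLK8 were less abundant. In HCC1937 KLK7 was listed at 1.85, 2.796 and 3.00 FPKM in CSCs and at 30.7, 28.3 and 26.3 FPKM in non-CSCs. KLK8 was listed at 2.46, 2.82 and 2.76 FPKM in CSCs and at 37.3, 29.8 and 26.5 FPKM in non-CSCs. These were the largest HCC1937 changes among the 10 genes, with log2 fold changes of -3.46 for KLK7 (standard error 0.193, adjusted p = 0.000276) and -3.48 for KLK8 (standard error 0.143, adjusted p = 0.000146). In SUM149PT KLK7 was listed at 0.0158, 0 and 0.0148 FPKM in CSCs and at 0.0732, 0.0716 and 0.0153 FPKM in non-CSCs, overlapping values under the expression minimum, so it was not tested there. KLK8 was listed in SUM149PT at 0.0326, 0 and 0 FPKM in CSCs and at 0.0881, 0.428 and 0.192 FPKM in non-CSCs, and at 0 in all 3 SUM159PT libraries. The fractions of SUM149PT did not overlap for KLK8 (log2 fold change -1.48, adjusted p = 0.0142), but with quantile normalization the adjusted p was 0.0624, in a range from 0.000429 to 0.0624, and the value ran from -3.66 to -0.28 with the setting. Without SUM149PT non-CSC replicate 2, the highest library, KLK8 was under the expression minimum.

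Calls required an adjusted p no higher than 0.05 together with a log2 fold change of 1 or more in either direction. In SUM149PT 9 of the 10 genes passed the expression minimum, a mean of 0.1 FPKM or more over the compared libraries, and 8 of them were called lower in CSCs, where 22.1% of all 16037 genes tested were called lower. TMPRSS4 and KLK8 had CSC means under 0.1 FPKM and passed the minimum only through the non-CSCs, so their calls could only be lower. None of the 9 was called higher, as each log2 fold change was negative, where 12.8% of all genes were called higher. At the adjusted p limit of 0.0001 that the methods of the study state, 6 genes were called lower, against 12.8% of all genes. In HCC1937 all 10 passed the minimum and all 10 were called lower in CSCs, where 6.0% of the 15582 genes tested were called lower, and 0 were called higher, where 2.71% were. At the limit of 0.0001, limma called 0 of the 10 genes and 0 of all genes (0%) lower in HCC1937, while the unadjusted p was 0.05 or lower for 5886 genes. ST14, SPINT1, PRSS8 and the kallikreins are in a gene list that the study drew from these HCC1937 libraries, and SPINT2 and TMPRSS4 in one drawn from these SUM149PT libraries, so the counts are not independent evidence of direction. The median log2 fold change over all genes was -0.11 in SUM149PT and -0.03 in HCC1937. Quantile normalization moved the SUM149PT median to 0.10 and raised the share of higher genes among all calls from 36.5% to 51.2%, and rescaling to a common sum raised that share from 31.1% to 42.1% and moved the median to 0.09 in HCC1937. The CSC effects of the tested members kept a negative sign under every setting tried in both lines. With 3 libraries against 3 the exact two-sided permutation test cannot go below p = 0.10, the value it gave for every member without overlap.

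**Figure D2:**
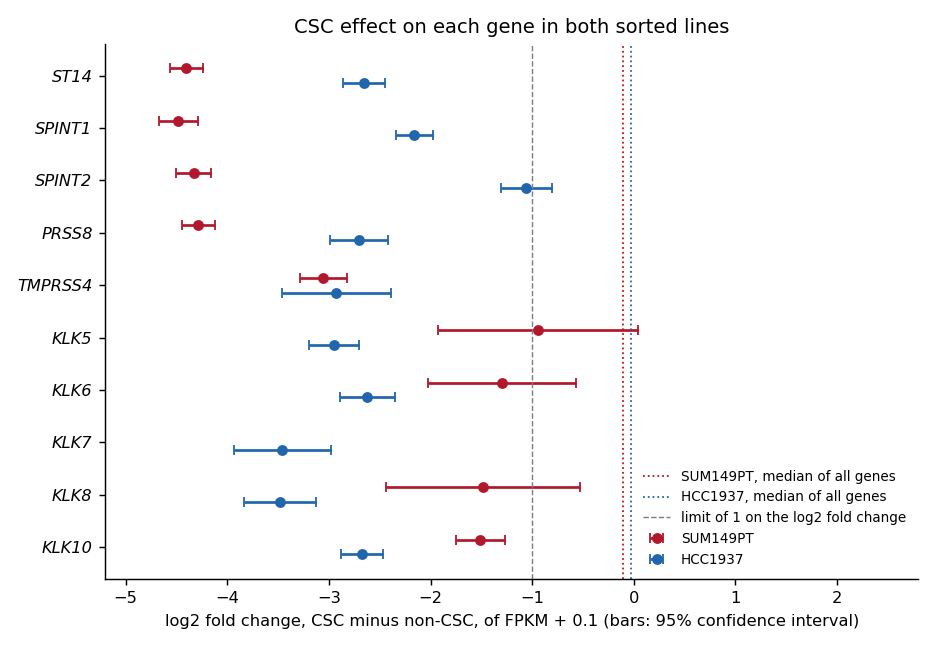
The log2 fold change, CSC minus non-CSC, of each gene on the log2(FPKM + 0.1) scale in SUM149PT (red) and HCC1937 (blue), with 95% confidence intervals from limma, the medians of all genes as dotted lines and the limit of -1 as a dashed line. ST14, SPINT1, SPINT2 and PRSS8 lie between -4.48 and -4.28 in SUM149PT and spread from -2.70 to -1.06 in HCC1937, and KLK7 has no SUM149PT point because it was under the expression minimum.

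The size of the CSC effect was compared between the lines as an interaction over the 12 sorted libraries. It differed for 9 of the 10 genes, where 30.4% of all 16451 genes tested differed, and for 6 with a pseudocount of 0.01, with rescaling to a common sum or at the adjusted p limit of 0.0001. ST14, SPINT1, SPINT2 and PRSS8 fell more in CSCs of SUM149PT, by differences of log2 fold changes from -3.27 for SPINT2 to -1.58 for PRSS8. The 5 kallikreins had positive differences on this scale, from 1.16 for KLK10 to 3.00 for KLK7, but their SUM149PT values were under 1 FPKM, where the scale cannot show a large fall. KLK7 passed the expression minimum only through HCC1937, so its difference restates the HCC1937 change. With a pseudocount of 0.01 the difference of KLK8 turned to -0.14, that of KLK10 was 0.79 and that of KLK6 lost its call (adjusted p = 0.327, in a range from 4.64e-08 to 0.327 over the alternatives). With rescaling to a common sum KLK6, KLK8 and KLK10 were not called either, at 0.82, 0.86 and 0.81. That setting also made the minimum and the pseudocount smaller relative to the values, as 18270 genes passed instead of 16451. Its moves therefore cannot be put down to the scaling alone. The TMPRSS4 difference was -0.13 (95% confidence interval -0.68 to 0.43, adjusted p = 0.682), and it turned to 0.043 without HCC1937 CSC replicate 3. With a pseudocount of 1 it was 0.30 (adjusted p = 0.0302), under the fold change limit. Of all genes whose effect differed, 40.2% had the higher value in SUM149PT, or 50.7% with quantile normalization, which moved the median of all genes from -0.08 to 0.06.

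The ratio of inhibitor to protease transcripts was taken within each library. SPINT1 to ST14 was 7.86, 6.47 and 6.26 in SUM149PT CSCs and 6.64, 7.14 and 6.98 in SUM149PT non-CSCs. In HCC1937 it was 3.68, 3.38 and 3.99 in CSCs and 2.58, 2.62 and 2.56 in non-CSCs. The fractions overlapped in SUM149PT (exact permutation test, two-sided p = 0.90) and did not in HCC1937. SPINT2 to ST14 was 6.25, 6.69 and 6.39 in SUM149PT CSCs and 5.69, 5.78 and 6.18 in SUM149PT non-CSCs, against 25.6, 21.4 and 23.15 in HCC1937 CSCs and 7.76, 7.655 and 7.475 in HCC1937 non-CSCs. The SPINT2 ratio was higher in CSCs of both lines without overlap, by 0.13 on the log2 scale in SUM149PT and by 1.61 in HCC1937. The exact permutation test gave p = 0.10 in each line, the lowest it can give, among 12 ratio tests. In SUM149PT the ranges of the fractions lay close to each other. PRSS8 to ST14 stayed within overlapping ranges in both lines, at means of 2.19 and 1.96 in SUM149PT CSCs and non-CSCs and of 1.325 and 1.36 in those of HCC1937. ST14 was too low in SUM159PT for a ratio.

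**Figure D3:**
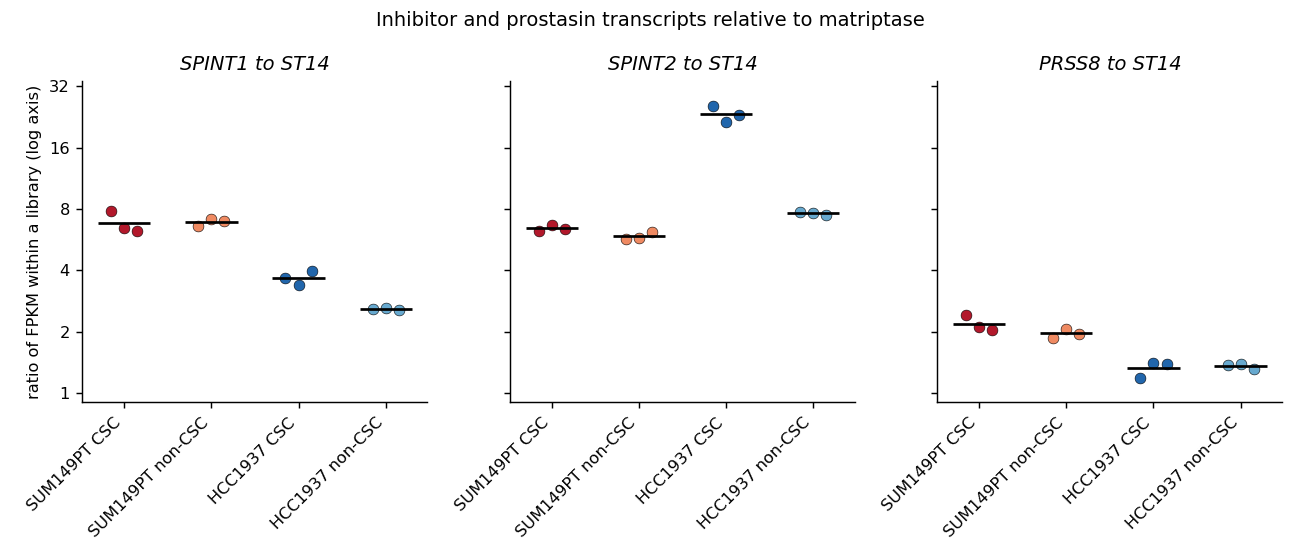
Ratios of the FPKM of SPINT1, SPINT2 and PRSS8 to that of ST14 within each sorted library (points, log axis), with the group mean as a bar. The ratio of SPINT2 to ST14 in HCC1937 CSCs, 21.4 to 25.6, lies above all other groups, while the fractions of SUM149PT overlap for SPINT1 and PRSS8 and lie close to each other without overlap for SPINT2.

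The genes lie on 4 chromosomes of the human genome build GRCh38. ST14 is on chromosome 11 from 130159782 to 130210362, TMPRSS4 on chromosome 11 from 118077078 to 118125505, SPINT1 on chromosome 15 from 40844048 to 40858207 and PRSS8 on chromosome 16 from 31131433 to 31135727. SPINT2 is on chromosome 19 from 38264573 to 38292615, apart from the kallikreins. KLK5 to KLK10 follow one another on the reverse strand of that chromosome, with KLK5 from 50943303 to 50953038 and KLK10 from 51012739 to 51020097. In GENCODE release 29 ST14 overlaps 0 other genes and each of the other 9 overlaps at least 1, among them SPINT1-AS1 on the other strand from SPINT1 and a same-strand gene, AC011473.4, that overlaps KLK8. Whether fragments were assigned by strand is not given in the sources used here, so reads of such partners cannot be told apart.

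Along the cluster, the transcripts of HCC1937 formed one block. From KLK5 to KLK11, a stretch of 84.7 kilobases, 7 consecutive genes had a mean above 1 FPKM in HCC1937 non-CSCs, while the kallikreins on either side were at 0.161 FPKM or less there. KLK9, which is not among the 10 genes, lies between KLK8 and KLK10 and was listed in HCC1937 at 4.335, 4.51 and 3.08 FPKM in CSCs and at 30.9, 31.55 and 27.5 FPKM in non-CSCs. KLK11, at the end of the block, was listed at 0.407, 0.398 and 0.0255 FPKM in CSCs and 2.31, 2.36 and 1.45 FPKM in non-CSCs. Summed over the 15 kallikrein genes, expression was 150.5, 163 and 152 FPKM in HCC1937 CSCs and 1213, 1083 and 1009 FPKM in HCC1937 non-CSCs, with 97.1% and 97.0% of the mean sum from the 5 kallikreins described here. The sum was 0.757 to 0.965 FPKM in SUM149PT CSCs, 1.72 to 2.75 FPKM in SUM149PT non-CSCs and 0.454 to 0.549 FPKM in SUM159PT.

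**Figure D4:**
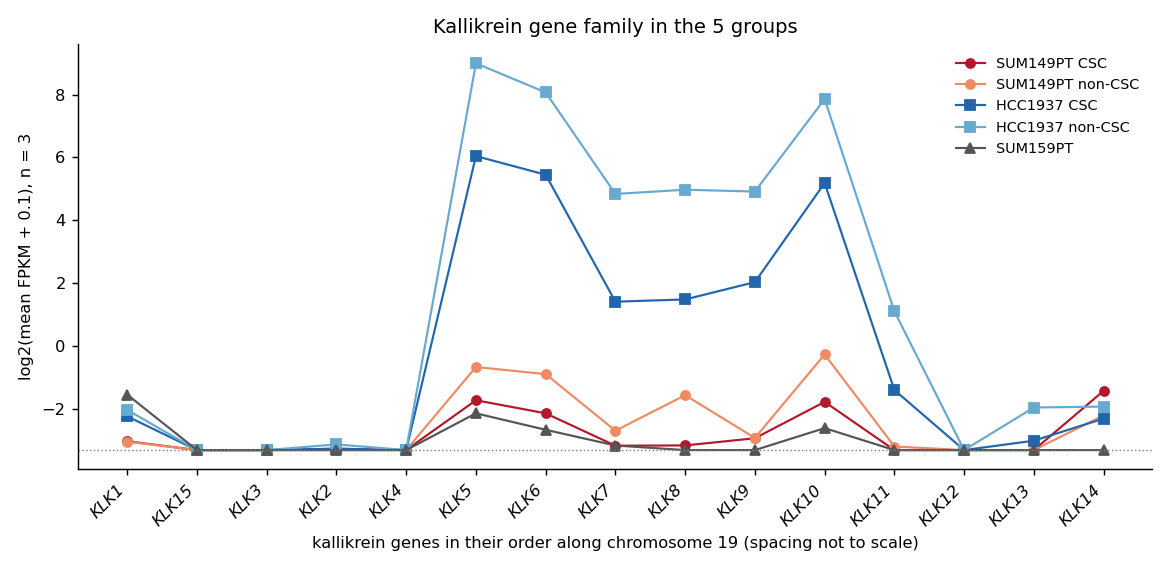
Mean expression, log2(mean FPKM + 0.1) over 3 libraries, of the 15 kallikrein genes in their order along chromosome 19 in the 5 groups, with the value of a gene listed at 0 as a dotted line. In HCC1937 the genes from KLK5 to KLK11 rise above their neighbours in both fractions, with non-CSCs above CSCs, and the other 3 groups stay under 1 FPKM for each kallikrein.

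The bases before the starts of KLK5, KLK6, KLK7 and SPINT1, all lower in HCC1937 CSCs, are shown to compare these windows. KLK10 was lower as well, but its windows reach into the annotated gene and are not shown. RefSeq promoter windows were matched for 5 of the 10 genes (SPINT1, KLK5, KLK6, KLK7 and KLK10), with 9 start sites, and the 250 bases before each start were searched on both strands for CACCTG, the E-box form bound by ZEB and SNAI factors (CAGGTG on the other strand). Capitals mark the match. The windows, each written 5′ to 3′ on the strand of its gene in the build GRCh38.p14, are chr19:50953039-50953288 on the reverse strand for KLK5, chr19:50969592-50969841 on the reverse strand for KLK6, chr19:50984065-50984314 on the reverse strand for KLK7 and chr15:40843798-40844047 on the forward strand for SPINT1.
KLK5: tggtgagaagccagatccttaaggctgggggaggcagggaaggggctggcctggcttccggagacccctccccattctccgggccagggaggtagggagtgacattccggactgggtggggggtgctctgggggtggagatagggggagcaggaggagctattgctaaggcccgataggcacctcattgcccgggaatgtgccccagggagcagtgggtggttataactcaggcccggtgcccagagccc
KLK6: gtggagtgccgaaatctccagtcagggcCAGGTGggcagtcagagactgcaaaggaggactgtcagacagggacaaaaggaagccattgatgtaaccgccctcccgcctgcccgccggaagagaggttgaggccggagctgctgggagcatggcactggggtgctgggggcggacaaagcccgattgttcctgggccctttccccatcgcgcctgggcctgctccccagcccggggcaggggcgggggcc
KLK7: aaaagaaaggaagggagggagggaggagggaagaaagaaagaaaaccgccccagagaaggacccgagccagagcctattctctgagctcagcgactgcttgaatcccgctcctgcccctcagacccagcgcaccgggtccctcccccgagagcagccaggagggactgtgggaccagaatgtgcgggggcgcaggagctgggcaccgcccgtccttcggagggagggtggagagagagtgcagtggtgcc
SPINT1: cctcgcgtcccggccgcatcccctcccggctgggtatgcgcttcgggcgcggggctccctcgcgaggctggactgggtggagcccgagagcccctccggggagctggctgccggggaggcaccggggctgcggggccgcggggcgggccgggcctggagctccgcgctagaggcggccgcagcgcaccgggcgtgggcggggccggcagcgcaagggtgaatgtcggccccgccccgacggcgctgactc
The KLK6 window held 1 match and the other windows shown held 0. Of the 9 windows 3 held the motif, where 17.5% of all 35116 windows of this length held it. The other matches were at a second start of SPINT1 and another start of KLK7, in windows that lie in or reach into the annotated gene. Windows of KLK7 overlap one another, as do those of KLK10, so the 9 windows are not independent. The grainyhead-like motif AACCNGTT (AACNGGTT on the other strand) was in 0 of the 9 windows, and in 1.49% of all windows. A match is a description of the sequence and no match says only that these letters are not in the window.

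Genes related to these proteases were counted in lists by the same calls, to be read beside the shares over all genes, 22.1% lower and 12.8% higher in SUM149PT and 6.0% lower and 2.71% higher in HCC1937. As for the 10 genes, a called gene or marker under 0.1 FPKM in one fraction passed the minimum only through the other, so its direction was fixed, and such genes are named beside their counts. Of 10 other kallikreins, 4 passed the expression minimum in HCC1937 and 2 of them, KLK9 (log2 fold change -2.90, adjusted p = 0.000276) and KLK11 (-2.725, adjusted p = 0.0223), were lower in CSCs. KLK11 lost its call without HCC1937 non-CSC replicate 1 (adjusted p = 0.0782) or replicate 2 (adjusted p = 0.0753), and also with a pseudocount of 0.01 (adjusted p = 0.0700) and with rescaling to a common sum (adjusted p = 0.0567), with a range from 0.0002675 to 0.0782 over the alternatives. KLK1 and KLK14 had group means of at most 0.270 FPKM. In SUM149PT the 1 kallikrein tested, KLK14, was not called (log2 fold change 0.82, adjusted p = 0.0869), but with quantile normalization it was called higher (1.38, adjusted p = 0.00874, in a range from 0.00874 to 0.221 over the alternatives). The list median was -1.63 in HCC1937, where that of all genes was -0.03.

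Of 20 other membrane-anchored and related serine proteases, 7 were tested in SUM149PT and 4 were lower and 1 was higher in CSCs (list median -2.77). Whether each product is membrane-anchored was not checked, those of PRSS22 and PRSS27 among them. The direction of TMPRSS13, under 0.1 FPKM in the CSCs, was fixed by the minimum, and the count of higher genes was 2 without SUM149PT CSC replicate 2. In HCC1937 6 were tested and 4 were lower and 0 higher (list median -1.19). The count of lower genes was 2 without HCC1937 non-CSC replicate 1, non-CSC replicate 3 or CSC replicate 2, and with a pseudocount of 1. TMPRSS3, a type II transmembrane protease, was listed in SUM149PT at 6.01, 5.33 and 6.39 FPKM in CSCs and at 166.5, 165 and 165 FPKM in non-CSCs, a log2 fold change of -4.79 (adjusted p = 1.49e-06). In HCC1937 it had means of 2.33 and 2.46 FPKM in CSCs and non-CSCs, and its log2 fold change of -0.09 (adjusted p = 0.713) turned to 0.0088 with quantile normalization, 0.0353 with rescaling to a common sum and 0.0437 without HCC1937 CSC replicate 3. TMPRSS6, called lower in HCC1937 at means of 0.0302 and 0.208 FPKM in CSCs and non-CSCs (adjusted p = 0.0419), a direction fixed by the minimum, lost its call along with PRSS27 in the HCC1937 settings that gave a count of 2. PRSS22 was lower in CSCs of both lines (-4.53 and -3.42), as were TMPRSS13 (-3.14 and -3.04) and PRSS27 (-2.77 and -1.18), although PRSS27 lost its HCC1937 call without HCC1937 non-CSC replicate 1, 2 or 3 or CSC replicate 3 (adjusted p from 0.0807 to 0.1053, in a range from 0.00155 to 0.1053 over the alternatives), and its log2 fold change was -0.88 without HCC1937 CSC replicate 2 and -0.92 with a pseudocount of 1. TMPRSS15, the gene of enteropeptidase, went the other way, with 41.3, 40.7 and 40.9 FPKM in CSCs and 4.81, 3.62 and 5.42 FPKM in non-CSCs of SUM149PT (log2 fold change 3.14, adjusted p = 1.50e-05), and at most 0.02945 FPKM in any HCC1937 library.

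Of 21 other protease inhibitors and related serpins, 13 were tested in SUM149PT and 10 were lower and 1 was higher in CSCs (list median -3.04). Whether each product is secreted or inhibits proteases was not checked, that of SERPINB5 among them. A2M and SPINK4 are among the lower genes, with a direction fixed by the minimum, and the count of higher genes was 2 without SUM149PT non-CSC replicate 2. In HCC1937 7 were tested and 4 were lower and 1 higher (list median -1.35). PI3, the gene of elafin, was listed in SUM149PT at 38.3, 42.5 and 37.9 FPKM in CSCs and at 1322, 1146 and 1239 FPKM in non-CSCs. In HCC1937 it was listed at 745.5, 659.7 and 595 FPKM in CSCs and at 1844, 1825 and 1640 FPKM in non-CSCs, and log2 fold changes were -4.96 and -1.41 (adjusted p = 1.49e-06 and 0.0006655). SLPI had log2 fold changes of -4.78 and -1.41. SERPINA3 (-3.99 and -2.98) and SERPINB5, the gene of maspin (-1.66 and -1.35), were lower in CSCs of both lines as well. SPINK6, an inhibitor of kallikreins, was lower in SUM149PT CSCs (-4.92, adjusted p = 3.65e-05) and at most 0.0556 FPKM in HCC1937, where the kallikreins were high. SERPINE2, the gene of protease nexin 1, was higher in CSCs of both lines (1.63 and 1.86, adjusted p = 9.23e-06 and 0.000252).

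Substrates and receptors of these proteases did not share one direction. Of 20 listed, 13 were tested in SUM149PT and 5 were lower and 6 higher in CSCs (list median 0.59), and of 16 tested in HCC1937 7 were lower and 1 higher (list median -0.61). EPCAM, a membrane protein that matriptase cleaves, was lower in CSCs of both lines (log2 fold changes -4.44 and -2.23). The sodium channel subunit gene SCNN1A was lower too (-4.59 and -2.67), as was MST1R, a receptor tyrosine kinase gene (-4.17 and -1.12, the latter -0.9952 with rescaling to a common sum). F2R, a receptor that proteases activate, was higher in CSCs of both lines (3.00 and 1.04), although in HCC1937, where its group means were 0.683 and 0.284 FPKM, the log2 fold change was under 1 without non-CSC replicate 1 (0.94), CSC replicate 2 (0.98) or non-CSC replicate 2 (0.98) and with a pseudocount of 1 (0.39). PLAU, the gene of urokinase, whose precursor matriptase can activate, was listed at 213, 224 and 211.5 FPKM in CSCs and 58.9, 57.8 and 67.7 FPKM in non-CSCs of SUM149PT (log2 fold change 1.82, adjusted p = 1.17e-05). In HCC1937 PLAU was -0.68 (adjusted p = 0.00438), short of the fold change limit. CDCP1 was higher in CSCs of SUM149PT (1.38) and differed by 0.66 in HCC1937. The other calls in SUM149PT were MST1 and PLAUR, lower, and F2RL2, HGF and MET, higher, and the others lower in HCC1937 were CDSN, F2RL1, SCNN1B and SCNN1G. The minimum fixed the direction of HGF in SUM149PT and of SCNN1G in HCC1937.

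Among 13 epithelial and mesenchymal transcription factors, all tested in both lines, 7 were lower and 3 higher in CSCs of SUM149PT (list median -1.02) and 5 lower and 3 higher in HCC1937 (list median -0.22). The epithelial factors ELF3 (log2 fold changes -2.54 and -2.40), GRHL1 (-2.75 and -2.35), GRHL2 (-4.24 and -2.47) and OVOL1 (-4.45 and -2.96) were lower in CSCs of both lines. ZEB1 was listed in SUM149PT at 7.39, 6.43 and 6.63 FPKM in CSCs and at 0.778, 0.633 and 0.916 FPKM in non-CSCs. The HCC1937 values were 6.77, 7.22 and 7.67 FPKM in CSCs and 1.32, 1.71 and 1.87 FPKM in non-CSCs. ZEB1 (2.99 and 2.09) and ZEB2 (1.98 and 2.30) were higher in CSCs of both lines, without overlap of the ZEB1 fractions. SNAI1 was lower in SUM149PT CSCs (-2.59, adjusted p = 2.23e-06) and was not called in HCC1937 (0.12, adjusted p = 0.483). EHF (-0.07 and 0.17) and KLF4 (-0.73 and -0.22) were not called in either line. The other calls were OVOL2 and TWIST1, lower, and SNAI2, higher, in SUM149PT, and GRHL3, lower, and TWIST1, higher, in HCC1937. OVOL2 was -2.11 in HCC1937 and narrowly missed the limit (adjusted p = 0.0513), and TWIST1 in SUM149PT, at -1.02, narrowly passed. Leaving out single libraries took the count of lower genes down to 6 in SUM149PT and up to 6 in HCC1937.

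**Figure D5:**
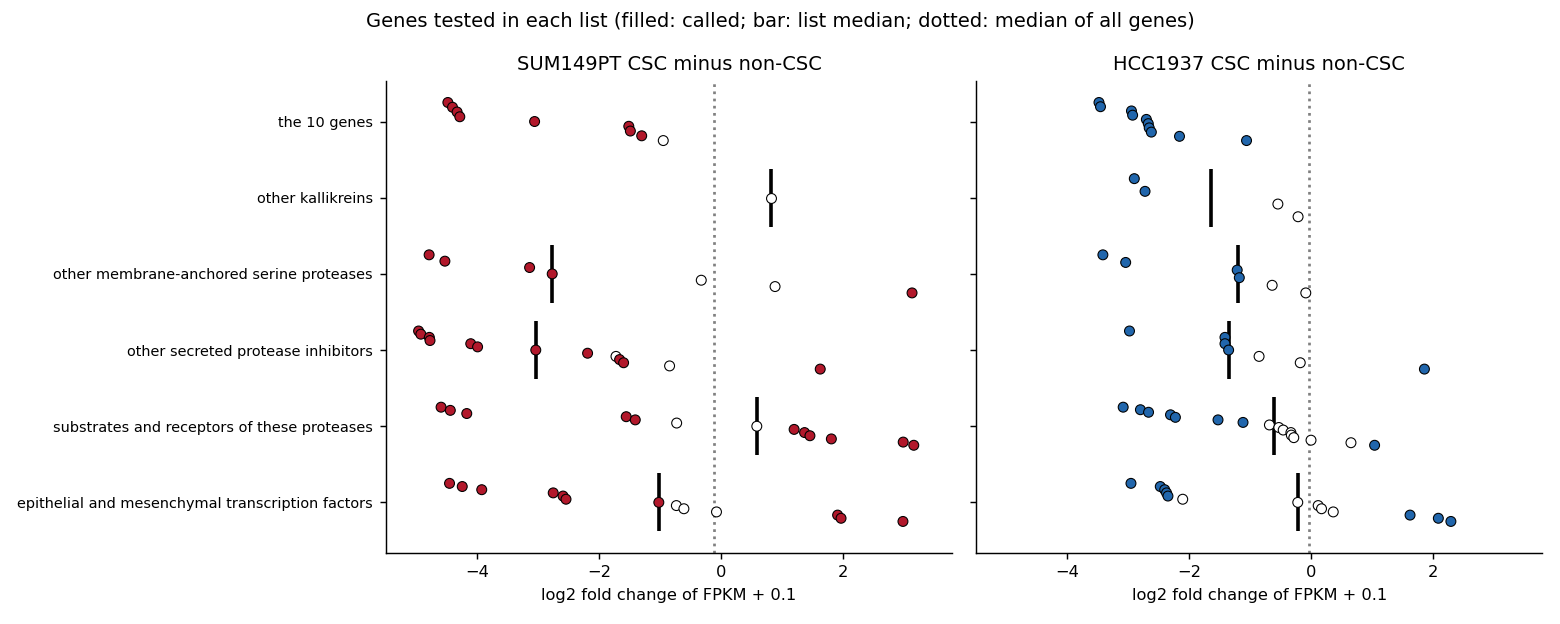
The log2 fold change, CSC minus non-CSC, of every tested gene of each list in SUM149PT (left) and HCC1937 (right), on the log2(FPKM + 0.1) scale, with called genes filled, list medians as bars and the median of all genes dotted. The 10 genes are shown in the top line with no median. The other inhibitors and related serpins lie mostly at negative values in both lines, and substrates, receptors and transcription factors lie on both sides.

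Cell type markers were counted by the same calls, and their directions differed between lists. Their counts stand beside the shares over all genes of 22.1% lower and 12.8% higher in SUM149PT and 6.0% and 2.71% in HCC1937. All 5 luminal epithelial markers were lower in CSCs of both lines, and their summed expression was 122, 127 and 125 FPKM in CSCs and 1686, 1637 and 1662 FPKM in non-CSCs of SUM149PT. In HCC1937 the sums were 503, 467 and 419 FPKM in CSCs and 1408, 1427 and 1216 FPKM in non-CSCs. The most abundant luminal marker was KRT19 in both fractions of SUM149PT, KRT8 in HCC1937 CSCs and KRT18 in HCC1937 non-CSCs, and none was at 0. Of 5 mesenchymal markers, 4 in SUM149PT and 5 in HCC1937 were higher in CSCs, with sums, mostly from VIM, of 2343, 2490.0 and 2401 FPKM against 457, 448 and 509 FPKM in SUM149PT and of 1080.0, 949.8 and 926 FPKM against 140.9, 211.5 and 186 FPKM in HCC1937. The part of these cell states in the results was not tested.

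The other marker lists gave smaller or mixed counts. Of 7 squamous differentiation markers, 3 of 5 tested (IVL, SPRR1B and TGM1) were lower in CSCs of SUM149PT and 4 of 6 (KRT13, SPRR1B, SPRR3 and TGM1) in HCC1937, where their sums were 14.03, 12.9 and 10.9 FPKM in CSCs and 113, 113 and 101 FPKM in non-CSCs. SPRR1B was the most abundant of them there, with means of 5.37 FPKM in CSCs and 85.5 FPKM in non-CSCs, and KRT1 was listed at 0. Of 4 basal markers, 2 (KRT5 and KRT17) were lower in each line and 1, TP63, was higher in SUM149PT CSCs. The 6 fibroblast markers gave 3 higher (COL1A1, COL3A1 and PDGFRB) and 1 lower (DCN) of 5 tested in SUM149PT, with COL1A1 at a mean of 216 FPKM in its CSCs, and 1 higher (COL1A2) of 3 tested in HCC1937. The 4 endothelial markers summed to at most 1.83 FPKM in any sorted library, with 3 lower in SUM149PT (CDH5, PECAM1 and VWF) and 1 in HCC1937 (CDH5). The minimum fixed the direction of IVL, SPRR1B, CDH5 and VWF in SUM149PT and of CDH5 in HCC1937. Of 5 blood markers only CD14 was tested, and its values went in opposite directions, with means of 2.66 and 51.3 FPKM in CSCs and non-CSCs of SUM149PT (log2 fold change -4.23, adjusted p = 3.80e-06) and of 60.3 and 30.3 FPKM in those of HCC1937. The HCC1937 value, 0.99 (adjusted p = 0.00186), was just short of the fold change limit. CD3E was listed at 0 in every sorted library. Of both sort markers CD24 was called lower in each line. The part of these markers in the results was not tested.

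The lines were also compared within each fraction. Between CSCs, 9 of the 10 genes were higher in HCC1937 than in SUM149PT, where 26.1% of all genes were higher, and 0 were lower, where 17.7% were. The difference was 7.80 on the log2 scale for KLK5, 3.89 for SPINT2 and 1.15 for SPINT1, and TMPRSS4, at 0.84, was under the fold change limit. With upper quartile scaling SPINT1, at 0.91, was under it too, and without HCC1937 CSC replicate 1 TMPRSS4, at 1.05, passed it. The count of 9 was 8 with upper quartile scaling or quantile normalization. It was 10 with a pseudocount of 0.01 or rescaling to a common sum. All 10 log2 differences were positive. TMPRSS4, KLK7 and KLK8 were under 0.1 FPKM in SUM149PT CSCs and were tested only because of their HCC1937 level, as was KLK7 in non-CSCs. The positive sign of these differences was therefore fixed by the minimum, and a call of them could only be higher. Between non-CSCs, the 5 kallikreins were higher in HCC1937, where 22.0% of all genes were higher, by 6.66 for KLK8 to 9.80 for KLK5. SPINT1 was lower in HCC1937 by -1.17, where 20.7% of all genes were lower. ST14 (0.25), PRSS8 (-0.28), SPINT2 (0.62) and TMPRSS4 (0.71) were under the limit in non-CSCs, and the adjusted p of ST14 and PRSS8 did not hold up. It ran from 0.00630 to 0.899 for ST14, whose difference was 0.0096 with upper quartile scaling (adjusted p = 0.899), 0.075 with quantile normalization (adjusted p = 0.285) and 0.0806 with rescaling to a common sum (adjusted p = 0.343). It also missed 0.05 without SUM149PT non-CSC replicate 2 or 3 or HCC1937 non-CSC replicate 1 or 2, at 0.0627 to 0.0691. It ran from 0.000667 to 0.138 for PRSS8, missing 0.05 with one fit over all 15 libraries (adjusted p = 0.138) and without SUM149PT non-CSC replicate 1 (0.0614) or 2 (0.0705). Upper quartile scaling moved the share of higher genes among calls from 59.6% to 49% between CSCs and from 51.5% to 40.9% between non-CSCs, and moved the medians of all genes from 0.24 to 0.0054 and from 0.10 to -0.13.

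SUM159PT had the lowest mean of all 5 groups for 9 of the 10 genes, the exception being KLK7, which was listed at 0, 0.0161 and 0.0158 FPKM there and overlapped both SUM149PT groups. For KLK6 and KLK8, SUM159PT and SUM149PT CSC libraries overlapped. Against SUM149PT CSCs, 6 of the genes passed the expression minimum and ST14, SPINT1, SPINT2 and PRSS8 were lower in SUM159PT, 4 of 6 where 45.6% of all genes were lower, and 0 were higher where 21.3% were. ST14 and PRSS8, under 0.1 FPKM in SUM159PT, passed the minimum only through SUM149PT CSCs, so their calls could only be lower. The log2 differences were -4.03 for ST14, -4.86 for SPINT1, -2.87 for SPINT2 and -4.74 for PRSS8. Against HCC1937 CSCs all 9 genes tested were lower in SUM159PT, where 48.3% of all genes were lower, and 0 were higher, where 18.5% were. Of these 9, ST14, PRSS8, KLK6, KLK7, KLK8 and KLK10 were under 0.1 FPKM in SUM159PT and passed only through HCC1937 CSCs, so their direction was fixed and the count is a description. Such a large share of lower genes depends on the scale: the median over all genes was -0.76 against SUM149PT CSCs, -1.72 after rescaling to a common sum and 0.04 with quantile normalization. Against HCC1937 CSCs the median was -0.97, -1.83 and -0.006. The share of higher genes among calls was 31.8%, 11.4% and 50.9% in the former comparison and 27.6%, 12.8% and 49.2% in the latter, where upper quartile scaling gave 39.1%. Both comparisons use the same SUM159PT libraries. The 4 genes called against SUM149PT CSCs kept their direction under every alternative setting, with log2 differences from -6.17 for PRSS8 to -1.54 for ST14 at the ends of their ranges. KLK5 and KLK10 turned from -0.40 and -0.84 to 0.66 and 0.20 with quantile normalization.

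The genes whose expression was most like that of ST14 were found by Pearson correlation of log2(FPKM + 0.1) over the 15 libraries, among the 12164 genes whose mean reached 1 FPKM. They were CDH1 (r = 0.998), CD24 (0.997), DLG3 (0.997), UCA1 (0.996) and MPZL2 (0.996). CDH1, the gene of E-cadherin, had mean FPKM of 3.32 and 78.3 in CSCs and non-CSCs of SUM149PT, 16.9 and 82.8 in those of HCC1937 and 0.0681 in SUM159PT. Among the 10 genes, r with ST14 was 0.994 for PRSS8, 0.985 for SPINT1 and 0.972 for SPINT2. For KLK5 the closest genes outside the 10 were TMC5 (0.998), KLK9 (0.993), WNK2 (0.991), GPR110 (0.991) and SUN3 (0.991), all low outside HCC1937, and r was 0.997 with KLK6, 0.994 with KLK10 and 0.6055 with ST14. The libraries fall into 5 groups, so these coefficients mainly describe the group means.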

How the data were processed

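Expression was measured by mRNA sequencing in 15 libraries, 3 each of SUM149PT CSCs and non-CSCs, HCC1937 CSCs and non-CSCs and unsorted SUM159PT. The authors aligned the reads and deposited FPKM values for 33158 genes. Submitters' processing notes name Bowtie2 and the build GRCh38, and the quantification tool is not given in the sources used here. Groups were taken from the sample labels. The FPKM values were analysed as log2(FPKM + 0.1) over genes with a mean of 0.1 FPKM or more in the libraries of a comparison. FPKM are not counts, so limma (lmFit and eBayes, version 3.58.1, R 4.3.3) was used instead of a count test, with Benjamini-Hochberg adjustment over all genes tested, limits of 0.05 on adjusted p and 1 on the log2 fold change, and a stricter adjusted p limit of 0.0001. CSC effects of both sorted lines were compared by an interaction over the 12 sorted libraries. Single values were compared by exact permutation. Relative depth was read from ratios of values under 0.15 FPKM in bins of 0.05 log2, searched only near equal depth. Other steps used Python 3.11.15 with numpy 2.4.6, pandas 2.3.3, scipy 1.17.1 and matplotlib 3.10.9, and the fits were tested on simulated data.

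Named genes were all 10 members, from each of 5 lists the 4 genes highest in mean FPKM over the 15 libraries and every gene called in one direction in both sorted lines, and for ST14 and KLK5 the 5 other genes highest in Pearson r among those with a mean of 1 FPKM or more. TMPRSS6 and the genes named as other calls or as called markers fall outside this rule and were chosen after their values were seen. The lists were other kallikreins, other membrane-anchored and related serine proteases, other protease inhibitors and related serpins, substrates and receptors, and transcription factors. Markers of luminal, basal, squamous, mesenchymal, fibroblast, endothelial and blood cells and of the sort were counted as well. The members and lists were chosen with earlier results of these data known. Gene starts and ends came from RefSeq on GRCh38, strands and overlapping genes from GENCODE release 29, and promoter windows from RefSeq on GRCh38.p14. Alternatives were pseudocounts of 0.01 and 1, no expression minimum or 1 FPKM, upper quartile, quantile and common-sum (TPM) scaling, eBayes with trend and robust options, a block for the replicate number, one fit over all 15 libraries, other limits, and leaving out each library in turn. Common-sum scaling let more genes pass the minimum in every comparison. It thus changed the minimum and the pseudocount relative to the values along with the scaling.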

Additional observations from a re-analysis of the deposited data

Results flagged for a closer look

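The CSC effect (CSC minus non-CSC, log2 scale) differed between the sorted lines for the genes below by the limma interaction. Values are the SUM149PT effect minus the HCC1937 effect, so a negative value means a lower effect in SUM149PT. Among the 10 genes the difference was -1.75 for ST14, -2.32 for SPINT1, -3.27 for SPINT2 and -1.58 for PRSS8. It was 2.00 for KLK5, 1.32 for KLK6, 3.00 for KLK7, 2.00 for KLK8 and 1.16 for KLK10, whose SUM149PT levels were low. The neighbouring kallikreins KLK9 and KLK11 had differences of 2.90 and 2.62. KLK7, KLK9 and KLK11 were at or near 0 in SUM149PT and passed the expression minimum through HCC1937, so their differences restate the HCC1937 change. In the same way TMPRSS15 and SPINK6 were near 0 in HCC1937. Other listed serine proteases had differences of -4.70 for TMPRSS3, -1.11 for PRSS22, -1.59 for PRSS27 and 3.09 for TMPRSS15. Secreted inhibitors had -3.55 for PI3, -3.37 for SLPI, -1.01 for SERPINA3 and -4.71 for SPINK6. Among substrates and receptors the differences were 2.499 for PLAU, -1.92 for SCNN1A, -2.21 for EPCAM, 1.95 for F2R and -3.05 for MST1R, and among transcription factors -2.71 for SNAI1, -1.77 for GRHL2 and -1.50 for OVOL1. Groups of 3 libraries were not tested for a library far from the others.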

How the results depend on the processing

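Of 1138 refitted fold changes of the 10 genes, 1111 had the direction and the side of the adjusted p limit given in the report, 15 lost and 6 gained the call on adjusted p and 6 changed sign. Of 177 refitted counts of these genes, 171 were within 1.5 times the reported count. The lower count in SUM149PT, 8, was 5 with a pseudocount of 1, 4 over genes with a mean of 1 FPKM or more and 5 with quantile normalization. It was 7 without SUM149PT CSC replicate 1 or non-CSC replicate 2 and 9 without non-CSC replicate 1. The lower count in HCC1937, 10, was 0 at an adjusted p limit of 0.0001 and 9 without HCC1937 CSC replicate 3. The genes that differed between lines in non-CSCs, 6, were 10 with no minimum fold change, and those that differed between SUM159PT and SUM149PT CSCs, 4, were 8 with rescaling to a common sum. That rescaling also let more genes pass the minimum, 16484 instead of 14976, members among them. The move to 8 therefore cannot be put down to the scaling alone.

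The TMPRSS4 difference of CSC effects turned from -0.13 to 0.30 with a pseudocount of 1 (adjusted p = 0.0302) and to 0.16 with quantile normalization. It ran from -0.70 to 0.30 over all alternatives. Among fits that left out a library the ends were -0.33 without HCC1937 CSC replicate 1 and 0.043 without HCC1937 CSC replicate 3. The difference of KLK8 turned from 2.00 to -0.14 with a pseudocount of 0.01. It lost its call with rescaling to a common sum (adjusted p = 0.300, in a range from 7.37e-08 to 0.907 over the alternatives). That of KLK6 lost its call with that rescaling too (adjusted p = 0.189, in a range from 4.64e-08 to 0.327). The genes whose effect differed between lines, 9, were 6 with that rescaling, a pseudocount of 0.01 or an adjusted p limit of 0.0001. The rescaling also made the pseudocount and the minimum smaller relative to the values. It is therefore not a separate check from the pseudocount of 0.01. The difference of SUM159PT from SUM149PT CSCs turned with quantile normalization from -0.40 to 0.66 for KLK5 and from -0.84 to 0.20 for KLK10. The HCC1937 change of TMPRSS3 turned from -0.09 to 0.0088 with quantile normalization and to 0.0353 with rescaling to a common sum, and ran from -0.21 without HCC1937 CSC replicate 1 to 0.0437 without HCC1937 CSC replicate 3. The cause was not tested.

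Alternatives for the list counts and the other named genes were chosen after seeing the data. Of 340 list counts 320 were within 1.5 times the reported count. Of 930 fold changes of these genes 915 had the reported direction and side of the adjusted p limit, 9 lost and 3 gained the call and 3 changed sign. The labels do not say whether CSC and non-CSC libraries with one replicate number came from one sort, and the main fits treated them as unpaired. Deviations from the group means of libraries with one number had correlations across genes of 0.088, 0.0226 and 0.08 in SUM149PT. In HCC1937 they were -0.0777, -0.0352 and -0.0089, and not every library correlated best with its own number. Such weak correlations among so few libraries cannot show whether the libraries were paired. With the replicate block 8 and 10 of the genes were called lower in SUM149PT and HCC1937, and PRSS27 lost its HCC1937 call (adjusted p = 0.0527, in a range from 0.00155 to 0.1053). The adjusted p of KLK14 in SUM149PT and of KLK5 between SUM159PT and SUM149PT CSCs passed with the block at 0.0278 and 0.0273, both with a log2 fold change under the limit. Only relative depths could be estimated, so no counting error is given for low values such as the kallikreins in SUM149PT.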
